A study of Homo sapiens with 4 samples.

Results

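TRIM24-only distal sites were the places where HA-tagged TRIM24 was called in androgen-treated LNCaP cells, TRIM28 was not, and no annotated gene start was near. LNCaP is a human prostate cancer line that responds to androgen, and R1881 is a synthetic androgen. The series holds ChIP-seq site lists from 4 samples, 1 per condition and without replicates: HA-TRIM24 with R1881 at 10 nM for 16 h, HA-TRIM24 with the ethanol vehicle, TRIM28 with the same R1881 treatment and TRIM28 with ethanol. All cells had first spent 3 days in medium with charcoal-stripped serum, which removes steroids, so the ethanol samples are the hormone-starved controls. The labels name cells expressing HA-TRIM24 for the HA samples only, while the study's description of the experiment names them for both antibodies, so whether the TRIM28 samples came from the same cells is unsettled here. The protein pulled down with HA is the introduced, tagged one, and the TRIM28 antibody sees the cells' own protein. Members were chosen from measured site lists: TRIM24 R1881 sites on chromosomes 1 to 22 and X that shared not even 1 bp with a TRIM28 R1881 site, whose centre lay over 5 kb from every GENCODE transcription start site (TSS) on GRCh37 and over 1 Mb from any run of unknown bases of 1 Mb or longer. The TRIM24 R1881 list held 9363 sites, of which 9006 lay on these chromosomes, 4488 of those had no TRIM28 overlap, 1748 of those were distal, and 1590 remained as members. The 4 lists held 107370 sites in all.

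TRIM24 belongs to the TIF1 family of RING finger proteins, reads histone H3 tails through its PHD finger and bromodomain, and acts as a coactivator of nuclear receptors. TRIM28, also known as KAP1, is its relative best known as the corepressor that KRAB zinc finger proteins bring to DNA. Androgen-regulated enhancers of prostate cells are known to carry the androgen response element (ARE) and to be opened by the forkhead factor FOXA1. Neither TRIM protein reads these sequences itself, so a motif under a site is a description of the DNA there and not a contact of TRIM24.

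An ARE was searched as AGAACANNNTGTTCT with up to 2 mismatches in its 12 fixed bases, and a forkhead core as TGTTTAC, on both strands of the 200 bp around each site centre. The members below are shown because they carry these motifs and are among the strongest that do, in sequence with a copy number of 1. Sequences are from GRCh37, plus strand, with ARE and forkhead matches in capitals.
chr4:10532003-10532159: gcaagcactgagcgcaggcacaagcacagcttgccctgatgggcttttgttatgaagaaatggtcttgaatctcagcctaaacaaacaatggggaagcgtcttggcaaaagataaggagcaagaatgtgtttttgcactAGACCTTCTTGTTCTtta
chr13:31667171-31667327: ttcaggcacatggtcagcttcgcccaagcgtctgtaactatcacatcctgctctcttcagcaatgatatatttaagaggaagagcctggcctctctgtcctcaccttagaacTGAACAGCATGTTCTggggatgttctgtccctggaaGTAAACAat
chr11:65954049-65954205: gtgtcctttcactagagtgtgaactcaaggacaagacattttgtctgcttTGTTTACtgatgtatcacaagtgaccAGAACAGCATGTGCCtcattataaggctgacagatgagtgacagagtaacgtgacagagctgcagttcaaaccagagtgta
chr10:133738635-133738791: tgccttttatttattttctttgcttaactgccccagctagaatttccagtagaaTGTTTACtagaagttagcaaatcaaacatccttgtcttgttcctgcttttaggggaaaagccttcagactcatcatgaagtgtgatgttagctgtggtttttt

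A different kind of sequence lay under many of the strongest members. The next sites are shown because they hold, or resemble sites that hold, the B box, an internal promoter element of the tRNA genes that RNA polymerase III transcribes. The B box was searched as GTTCGANTC, and its matches are in capitals, with the forkhead match of the chr6 sequence also in capitals. This motif was added after the sequences of the strongest members had been seen, so its shares are given without a test.
chr1:161420436-161420592: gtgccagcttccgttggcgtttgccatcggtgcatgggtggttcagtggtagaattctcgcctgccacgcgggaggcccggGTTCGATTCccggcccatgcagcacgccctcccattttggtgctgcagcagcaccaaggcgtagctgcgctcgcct
chr6:27130020-27130176: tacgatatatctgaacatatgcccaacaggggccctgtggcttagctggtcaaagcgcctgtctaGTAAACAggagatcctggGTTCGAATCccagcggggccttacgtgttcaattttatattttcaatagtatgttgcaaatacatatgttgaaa
chr2:43037654-43037810: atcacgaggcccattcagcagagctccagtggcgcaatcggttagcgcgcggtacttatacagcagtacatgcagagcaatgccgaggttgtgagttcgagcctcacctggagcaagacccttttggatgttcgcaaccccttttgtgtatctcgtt

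Site strength is given as normalized tags, the ChIP tags the authors counted at a site after scaling every sample to the same total. Members were weak for the most part. Their median strength was 8.5 normalized tags, with quartiles at 7.8 and 10.9, a minimum of 5.4 and a maximum of 322.1. The shared distal sites, which are the 1836 distal TRIM24 R1881 sites that did overlap a TRIM28 R1881 site, had a median of 10.1. Their fold over the surrounding 10 kb, a ratio of tag densities, had a median of 9.89 in members and 10.9 in shared distal sites. The deposited score had its lowest value of 9 in 591 members, and 907 members (57.0%) scored 9 or 10. These values took part in choosing the members and are a description. By their headers, the TRIM24 R1881 list rests on 12884097 tags and the TRIM28 R1881 list on 14231181, each with a calling threshold of 9 tags, which is the lowest score in the TRIM24 list and not a floor on normalized tags. Binding too weak to be called at this depth cannot be told from none in these lists.

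The limits of the rule cut through closely similar sites. Among members nearest to the TSS limit, chr7:157666166-157666322 lay 5014 bp from a TSS with 14.7 normalized tags. The nearest site left out, chr2:175672004-175672160, lay 4999 bp from one with 12.4. For the TRIM28 limit, the member chr16:12356644-12356800 had 9.3 tags and its centre was 157 bp from that of a TRIM28 R1881 site of 10.5. The site chr7:112598061-112598217, with 13.2 tags, was left out because it just overlapped a TRIM28 site of 6.3 tags, 156 bp away from centre to centre. In all, 194 members had the centre of a TRIM28 R1881 site within 500 bp and 485 had one within 5000 bp.

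Most members were sites of the R1881 sample only. In hormone-starved cells, the TRIM24 list overlapped 251 of the 1590 members by at least 1 bp (15.8%, Wilson 95% confidence interval 14.1 to 17.7), whereas 25.5% of all TRIM24 R1881 sites on these chromosomes overlapped it. The share was 27.3% at shared distal sites (502 of 1836, interval 25.4 to 29.4), which was higher than in members (Fisher's exact test, odds ratio 0.498 for members, exact adjusted p = 3.59e-16 over 4 comparisons). Shared distal sites were also stronger, with a median of 10.1 normalized tags beside 8.5 in members. Among sites at or above the median tags of the TRIM24 R1881 list, the shares were 26.7% in members and 35.5% in shared distal sites. The odds ratio was then 0.661 (Fisher's exact test, exact adjusted p = 8.28e-05). Over all strengths, the share was 15.7% (424 of 2695, interval 14.4 to 17.2) at TRIM24-only sites near a TSS, and this comparison with members missed the threshold (odds ratio 1.00, exact adjusted p = 0.965). That last comparison passed in either direction under other settings. With only the TSSs of protein-coding transcripts the shares were 17.1% in members and 14.3% near a TSS (exact adjusted p = 0.0118), with ethanol centres within 500 bp they were 17.7% and 20.4% (exact adjusted p = 0.0308), and without members at a TRIM28 ethanol site 13.2% and 15.7% (exact adjusted p = 0.0461). These tests compare the sites of single samples and carry no error between cultures.

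At the members called in both TRIM24 samples, strength was close in the presence and absence of androgen. Members that fell below the calling threshold with ethanol are left out of this comparison, which favours close values. The 251 members had a median of 12.4 normalized tags with R1881 and 12.1 at the ethanol site they overlapped. The log2 ratio of R1881 to ethanol tags had a median of 0.09 with quartiles at -0.26 and 0.48, and the R1881 value was higher at 137 of them. Over all 2298 TRIM24 R1881 sites with an ethanol site, the median ratio was -0.03. The 1339 members without an ethanol site were weaker, with a median of 8.5. With members divided into 4 groups of like size by R1881 tags, the share with an ethanol site was 6.03% in the weakest group, 5.79% in the second, 12.8% in the third and 38.4% in the strongest. The last 2 groups met at 10.9 tags, a value that members of both had. The ethanol sample had 11606880 tags and the same calling threshold, so a weak member that just missed it there is counted as absent.

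**Figure D1:**
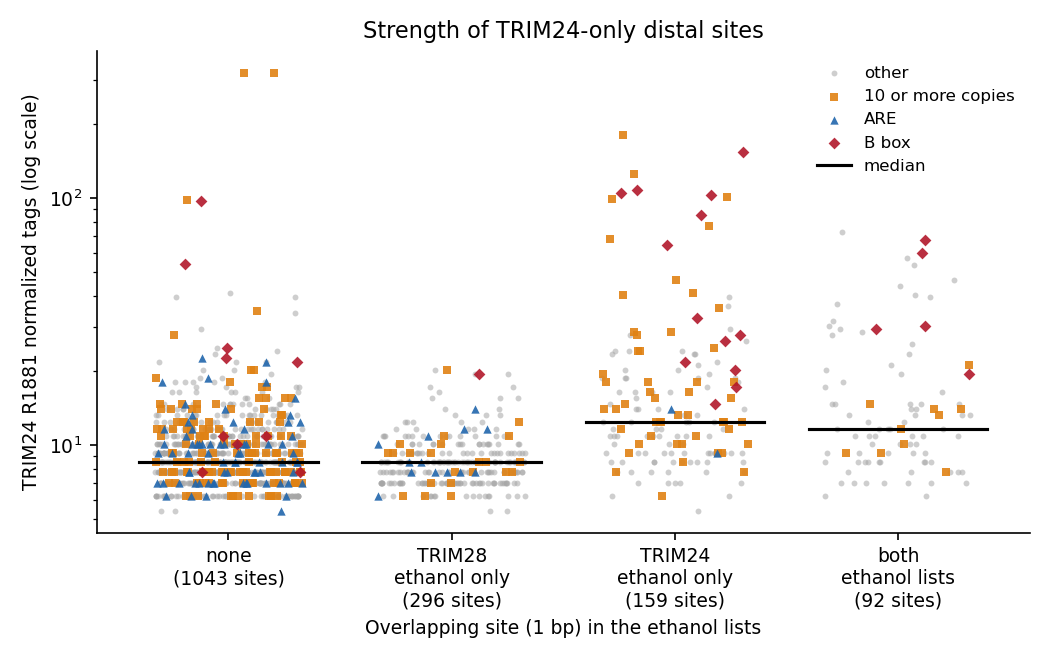
TRIM24 R1881 normalized tags (log axis) of each of the 1590 members, in columns by which ethanol list held an overlapping site; black lines are medians and colours mark sites with an ARE, a B box or sequence in 10 or more genome copies. Medians were 8.5 in the first 2 columns, 12.4 with a TRIM24 ethanol site only and 11.6 with sites in both lists. The columns without a TRIM24 ethanol site held 87 of the 89 ARE sites and 1339 of all 1590 members.

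Some members met TRIM28 in the other condition. The TRIM28 ethanol list overlapped 388 members (24.4%, interval 22.4 to 26.6), although none overlapped TRIM28 with R1881 by the rule. Of all TRIM24 R1881 sites on these chromosomes, 53.3% overlapped this list. The share was 65.2% at shared distal sites (1197 of 1836, interval 63.0 to 67.3, exact adjusted p = 1.41e-129) and 42.2% at TRIM24-only sites near a TSS (1137 of 2695, interval 40.3 to 44.1, exact adjusted p = 2.18e-32), both by Fisher's exact test. Members were chosen for lacking a TRIM28 R1881 site and shared distal sites for having one. The direction of the comparison with shared distal sites was therefore largely set by the rule. The TRIM28 ethanol sample was the deepest, with 25145171 tags and 58201 sites, and the share in members was 17.0% when only its strongest sites were used, as many as the TRIM28 R1881 list holds. The TRIM28 sites under members were of ordinary strength, since their median was 6.8 normalized tags and that of the 57690 TRIM28 ethanol sites on these chromosomes was 6.4. Over both ethanol lists, 1043 members (65.6%) had neither, 296 had TRIM28 only, 159 had TRIM24 only and 92 had both.

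**Figure D2:**
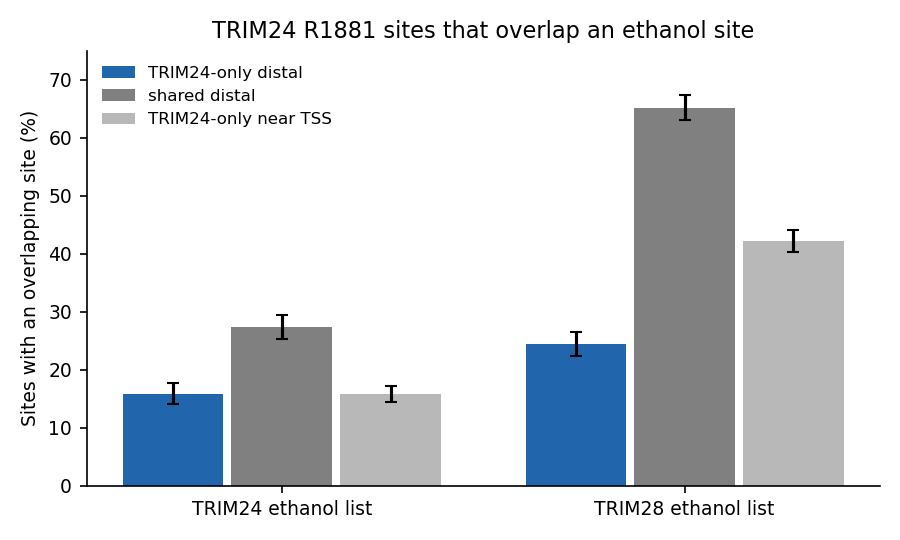
Percent of TRIM24 R1881 sites that overlapped a site of the TRIM24 or TRIM28 ethanol list, for TRIM24-only distal sites, shared distal sites and TRIM24-only sites near a TSS; error bars are Wilson 95% intervals over sites. TRIM24-only distal sites had the lowest TRIM28 ethanol share, 24.4%, and a TRIM24 ethanol share of 15.8% beside 27.3% at shared distal sites.

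Some of the members with most TRIM28 tags in ethanol are described here. By the rule no member has a TRIM28 R1881 site, so the lack of one at these sites is not a result. The TRIM28 samples also differed in depth, with 25145171 tags in ethanol and 14231181 with R1881. At chr1:201987859-201988015, 5.031 kb from a TSS of ELF3, an epithelial ETS factor, TRIM28 had 23.5 normalized tags with ethanol and no site with R1881, while TRIM24 had 17.2 with ethanol and 9.3 with R1881. At chr11:33331720-33331876, in an intron of the kinase gene HIPK3, TRIM28 had 15.1 in ethanol and TRIM24 had 17.1 with R1881 and no ethanol site. At chr1:54954085-54954241, 59.738 kb from the acyl-CoA thioesterase gene ACOT11, the values were 14.3 for TRIM28 in ethanol and 9.3 for TRIM24 with R1881. Without replicates, no such pair of values has an error between cultures.

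AREs were found in 89 members (5.60%, Wilson 95% interval 4.57 to 6.84), at 3.91 times the share of all 200 bp tiles of the genome, which was 1.43% of 14178079 tiles. The share was 2.30% in TRIM28-only distal sites (380 of 16514, interval 2.08 to 2.54), and the difference passed the test (Fisher's exact test, odds ratio 2.52, exact adjusted p = 5.52e-11 over 24 tests of 12 motifs). Shared distal sites had 5.88% (108 of 1836, interval 4.90 to 7.05), a difference that missed the threshold (odds ratio 0.949, exact adjusted p = 0.782). Of the 89 members, 2 matched the ARE exactly, 18 at best with 1 mismatch and 69 with 2. One exact match, at chr1:247110749-247110763 in a member of 7.0 normalized tags, is shown with its flanks.
ARE match in capitals: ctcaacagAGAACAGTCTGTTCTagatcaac

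The forkhead core was the more frequent motif. It was present in 235 members (14.8%, interval 13.1 to 16.6) and in 3.11% of tiles. Its share in TRIM28-only distal sites was 9.97% (1647 of 16514, odds ratio 1.57 for members, exact adjusted p = 1.42e-07). Shared distal sites had more, at 18.2% (335 of 1836, odds ratio 0.777, exact adjusted p = 0.0320), and this second difference was lost in 8 of 16 other settings. With the longer FOXA1 consensus of the study's motif sheet and no mismatch, 1.26% of members and 1.44% of TRIM28-only distal sites had a match, and the first difference was lost too (exact adjusted p = 0.782). ARE and forkhead core occurred together in 15 members, and 309 members (19.4%) had at least one of them. The ARE was in 6.38% of members with the forkhead core and in 5.46% of those without it.

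Both motifs were concentrated at the site centres. Within 50 bp of the centre there were 63 ARE matches in members, against 12.5 per 100 bp at distances beyond 300 bp, a ratio of 5.04. For the forkhead core the counts were 160 and 29.8, a ratio of 5.38. The same ratios were 6.27 and 8.07 at shared distal sites. This peak in the plot of motif positions is a measure that the choice of members did not use.

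**Figure D3:**
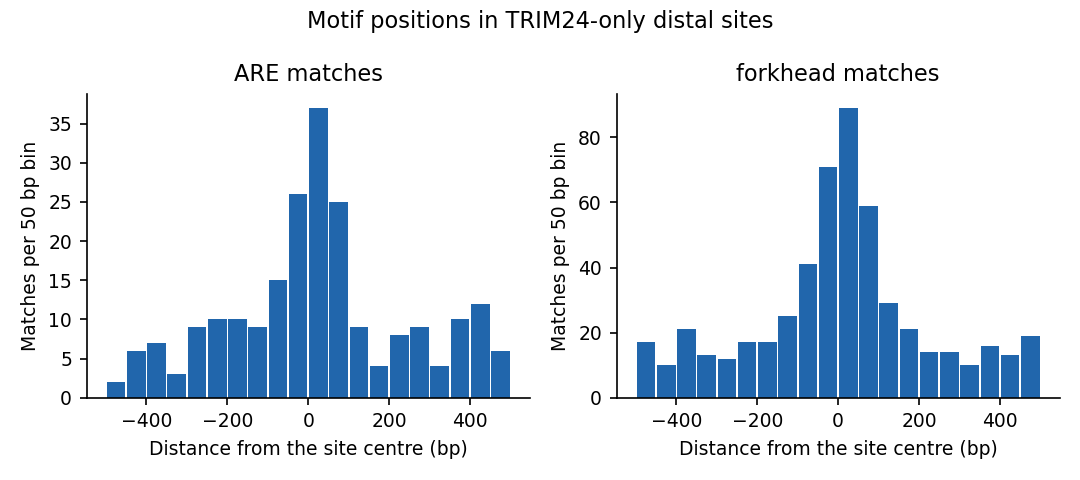
Number of ARE matches (left) and forkhead matches (right) in bins of 50 bp, by distance from the centre of the 1590 TRIM24-only distal sites. The highest bin lies at 0 to 50 bp in both panels, with 37 ARE and 89 forkhead matches.

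CTCF, the insulator protein, had its motif in 0 of 1590 members, which allows a share of up to 0.189%, searched as the 20-base consensus of the study's motif sheet with up to 3 mismatches. TRIM28-only distal sites held it in 158 of 16514 (0.957%, interval 0.819 to 1.12), a difference that passed the test (exact adjusted p = 5.65e-06). In shared distal sites it was in 4 of 1836 (0.218%), which did not differ past the threshold from members (exact adjusted p = 0.242). The tile share was 0.0226%. AP-1, the Fos and Jun dimer that binds TGANTCA, was in 7.74% of members, close to the tile share of 6.27%. Its share was 11.3% in shared distal sites (exact adjusted p = 0.00290) and 9.76% in TRIM28-only distal sites (exact adjusted p = 0.0338). The last call was lost in 5 of 12 other settings.

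The motifs that follow gave no call after adjustment over the 24 tests. The NF1 site, TTGGCA and its reverse complement around 5 bases with up to 2 mismatches, was in 1.07% of members, 2.07% of shared distal sites and 1.77% of TRIM28-only distal sites. For the epithelial factor GRHL (AACNGGTT), the member share was 2.89% beside 1.32% of tiles. HOXB13, a homeobox factor of prostate cells (searched as CCAATAAA), was matched in 2.26% of members and 1.10% of tiles. The promoter motifs GC box and ETS were less frequent in members than in TRIM24-only sites near a TSS, but above their tile shares. The GC box GGGCGG was in 4.09% of members, 38.1% of those sites and 2.90% of tiles. For the ETS site CCGGAAGT the shares were 0.440%, 2.41% and 0.0938%. YY1 (AAGATGGC) was found in 0.566% of members and the GATA core AGATAA in 14.3%, both below their tile shares of 0.854% and 14.7%.

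**Figure D4:**
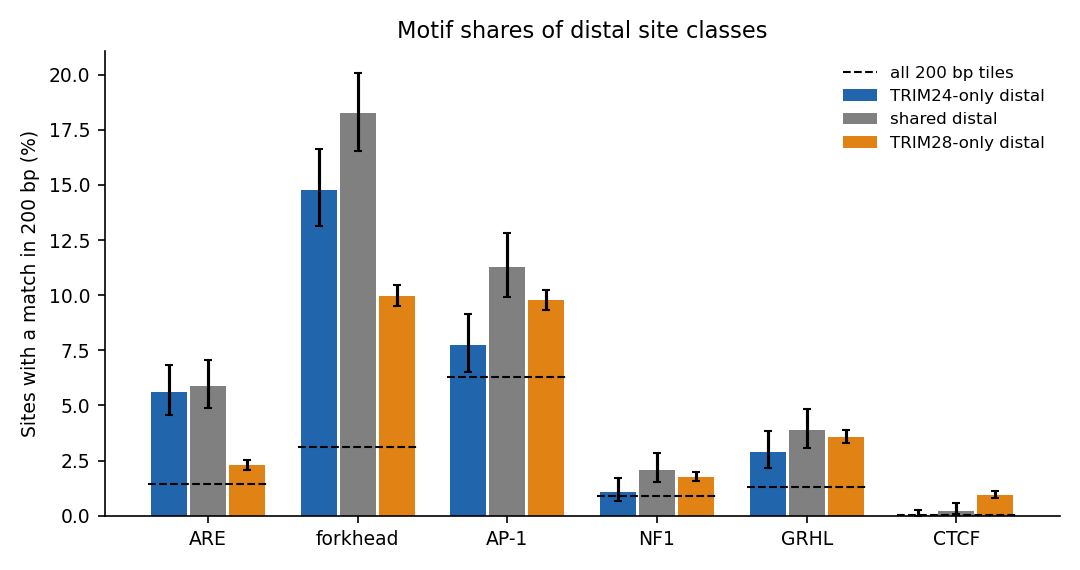
Percent of sites with a motif match in the 200 bp around the centre, for TRIM24-only distal, shared distal and TRIM28-only distal sites; error bars are Wilson 95% intervals over sites and dashed lines the share of all 200 bp tiles. The ARE bars stand at 5.60%, 5.88% and 2.30%, the forkhead bars at 14.8%, 18.2% and 9.97%, and the CTCF bar of TRIM24-only distal sites at 0.

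The ARE separated members by their state in hormone-starved cells. Of the 1339 members without a TRIM24 ethanol site, 87 held an ARE (6.50%, interval 5.30 to 7.95), and of the 251 with one, 2 did (0.797%, interval 0.219 to 2.86). The difference passed Fisher's exact test (odds ratio 8.65, exact adjusted p = 0.000226 over 12 motifs). The forkhead core was in 15.8% of members without and 9.16% of members with an ethanol site (odds ratio 1.86, exact adjusted p = 0.0257). This forkhead difference was not tried under other settings, such as limits on strength or copy number. The CTCF, NF1, AP-1, GRHL, ETS, HOXB13, YY1, GC box and GATA motifs did not pass. Members with an ethanol site were also stronger and more often repetitive, as given above and below, and the ARE difference was 8.04% against 1.01% among members above the median of the TRIM24 R1881 list by tags (exact adjusted p = 0.000621) and 7.24% against 1.31% among members in sequence of fewer than 2 genome copies (exact adjusted p = 0.0146). With at most 1 mismatch the difference kept its direction but missed the threshold, at 1.42% and 0.398% (exact adjusted p = 0.597). The reason for this loss was not tested. Shared distal sites had a split of the same direction, with an ARE in 7.72% of 1334 sites without and 0.996% of 502 sites with a TRIM24 ethanol site, given here without a test.

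**Figure D5:**
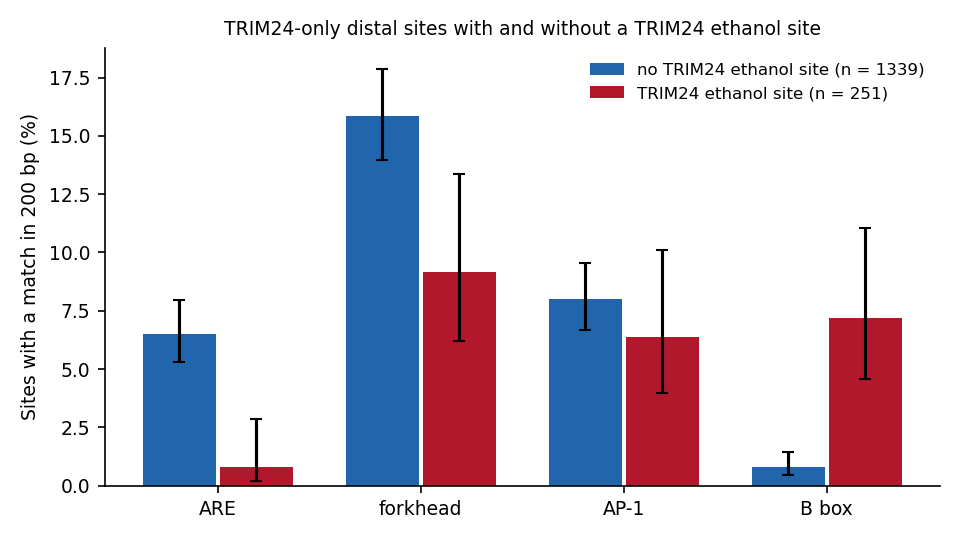
Percent of TRIM24-only distal sites with a motif match, split by whether the TRIM24 ethanol list held an overlapping site; error bars are Wilson 95% intervals over sites. The ARE and forkhead bars were higher without an ethanol site, at 6.50% and 15.8%, and the B box bar was higher with one, at 7.17% against 0.822%.

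The ARE share showed no order over 4 groups by strength, but the very strongest members had few AREs. Of the 30 strongest 0 held one, and of the 100 strongest 2 did, beside 5.60% of all members. AREs were in 6.28%, 4.53%, 6.30% and 5.28% of the members from the weakest to the strongest of the same 4 groups by R1881 tags. The strongest ARE member was chr12:22302262-22302418, in an intron of the sialyltransferase gene ST8SIA1, with 22.5 normalized tags and a median of 21 genome copies for its 24-base words. The member chr4:10532003-10532159, in an intron of CLNK, which codes for an immune cell adaptor, had 21.7 tags at 20.2 fold over local. The chr13:31667171-31667327 site, 45.456 kb from the heat shock protein gene HSPH1, had 18.6 tags at 23.7 fold and held both motifs. A further pair with 17.9 tags each completed the 5 strongest. Of these, chr15:45185853-45186009 lay 62.954 kb from TERB2, in sequence with a median of 317 genome copies. The other, chr11:65954049-65954205, was in an intron of PACS1, a trafficking adaptor gene. None of these 5 overlapped a site of either ethanol list, which was also so for 65.6% of all members and 74 of the 89 ARE members.

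The strongest members overall were of another kind. The pair with most tags, chr5:11085-11241 and chr5:10551-10707, had 322.1 each, at only 6.95 and 6.92 fold over their surroundings, and consisted of tandem copies of the telomere hexamer CCCTAA. Neither had an ethanol site. Next came chr9:141122325-141122481 with 179.3 tags with R1881 and 168.0 with ethanol, one of 4 members within 1.89 kb of tandem repeat sequence whose R1881 values ran from 99.3 to 179.3. In the TRIM24 ethanol list, the 4 members of the chr9 repeat had the most tags of all, from 109.4 to 168.0, followed by chr16:33872921-33873077, of 19 genome copies, with 87.0 in ethanol and 76.8 with R1881. Of the 30 strongest members, 23 had a TRIM24 ethanol site, 10 held a B box and 12 lay in sequence of 10 or more copies. Of the 100 strongest, 68 had a TRIM24 ethanol site, 2 held an ARE and 4 the forkhead core.

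Copy number was measured as the median number of times that the 24-base words of the 200 bp window occur on chromosomes 1 to 22 and X. It was under 2 for 1189 members (74.8%) and 10 or more for 225 (14.2%, interval 12.5 to 16.0). Shared distal sites had 8.55% with 10 or more copies and TRIM28-only distal sites 6.81%, and members exceeded both (Fisher's exact test, adjusted p = 8.31e-07 and 1.83e-21). A TRIM24 ethanol site was found at 31.7% of members with 100 or more copies and at 12.9% of those with fewer than 2. In the strongest of the 4 groups by tags 24.6% had 10 or more copies, and in the weakest 10.6%. Reads from such sequence can be placed at any of its copies, and the lists do not say how they were placed.

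The B box was matched in 29 members (1.82%, interval 1.27 to 2.61), 1.74% of shared distal sites, 0.0363% of TRIM28-only distal sites and 0.0575% of tiles. Their median strength was 26.4 normalized tags, with a range of 7.8 to 153.7, and 24 of the 29 were in the strongest of the 4 groups by tags. A TRIM24 ethanol site was present at 18 of them and a TRIM28 ethanol site at 6. They sat together, 12 on chromosome 1 and 12 on chromosome 6. In chr1:161391846-161450519, between CFAP126 and FCGR2A, 9 of 10 members held one. Another 3 of 13 members did in chr6:27059488-27302867, by the histone genes H2BC11 and H2AC12, and 6 of 11 in chr6:27499926-27759235, by ZNF184 and H2BC13. Of these 29 members, 2 also matched the forkhead core, among them chr6:27130020-27130176, which had 30.3 tags and was the strongest forkhead member. The annotation used for the TSS limit holds no nuclear tRNA genes, so a site at one passes as distal, and no tRNA name is given here.

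The largest fold over local belonged to chr2:43037654-43037810, 18.009 kb from HAAO, an enzyme of tryptophan breakdown, at 92.9 fold. It had 73.0 normalized tags with R1881, 40.5 for TRIM24 with ethanol and 9.5 for TRIM28 with ethanol, and no exact B box. It was followed by chr16:34002079-34002235, of 267 genome copies, with 70.7 fold, by the B box site chr1:161391846-161392002 with 69.1, by a site of 50 genome copies in an intron of CAMK2D with 59.3 and by chr6:27248006-27248162, 31.007 kb from POM121L2, with 53.4. All 5 had a TRIM24 ethanol site. The strongest forkhead member without a B box, chr11:129512297-129512453, 173.368 kb from TMEM45B, had 25.6 normalized tags with R1881 and 10.3 for TRIM24 with ethanol. The member chr10:133738635-133738791, shown above, 9.242 kb from the phosphatase subunit gene PPP2R2D, had 19.4 with R1881 and no TRIM24 ethanol site.

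Members lay in introns for the greater part when transcripts of every kind were counted, but not with protein-coding transcripts only. By all transcripts, the centre was in an intron in 898 (56.5%), between genes in 641 (40.3%) and in an exon in 51 (3.21%). By protein-coding transcripts only, it was in an intron in 655 (41.2%) and outside these transcripts in 905 (56.9%). The comparisons that follow use all transcripts. Leaving exons aside, the intron share was 58.3% in members, 58.3% in shared distal sites and 57.7% in TRIM28-only distal sites, and neither comparison passed (Fisher's exact test, adjusted p = 1.0 for both). The median distance to the nearest TSS was 17113 bp, with quartiles at 9580 and 32894 bp. To the nearest protein-coding TSS it was 54129 bp.

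Several genes known to respond to androgen in prostate cells had a member nearby. Of 20090 protein-coding genes, 1209 (6.02%) had a member within 50 kb of a TSS. In a list of 45 androgen-regulated genes it was 14 (31.1%), in one of 29 prostate transcription factors and cofactors 7 (24.1%), in one of 30 mitotic genes 3 (10.0%) and in one of 8 TIF1 family and related genes 2, namely TRIM24 and TRIM33. Of 516 ZNF genes, the zinc finger genes known as TRIM28 targets, 20 (3.88%) had one. The lists were drawn up with earlier results of these data known, so these are counts without a test. Shared distal sites were within 50 kb of 11 of the 45 androgen genes and 7.28% of all genes, and 5 androgen genes had sites of both kinds.

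FKBP5, the co-chaperone of steroid receptors and a standard androgen target, had the strongest of these members. It lay in an intron of the gene, 5.93 kb from a TSS, with 21.7 normalized tags at 12.3 fold over local and no site in either ethanol list.
In the kallikrein cluster, KLK3 and KLK2 each had 2 members within 50 kb. The stronger, chr19:51345467-51345623, lay 12.626 kb from a TSS of KLK3, the gene of prostate-specific antigen, and 19.279 kb from one of its paralog KLK2. The protein-coding TSS nearest to this site was that of KLK15, at 5.076 kb. Unlike the FKBP5 site, this kallikrein site was in all lists but one, with 19.4 tags for TRIM24 with R1881, 15.5 for TRIM24 with ethanol and 8.7 for TRIM28 with ethanol. PMEPA1, which dampens TGF-beta signalling, had a member of 19.4 tags 46.387 kb away, with 5.2 for TRIM28 in ethanol. UAP1, an enzyme of the hexosamine pathway, had one of 17.1 tags in its own intron and no ethanol site. IQGAP2, a scaffold protein gene, had an intronic member of 15.5 tags with R1881 and 6.4 for TRIM28 with ethanol.

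NFIB and NFIA, which code for nuclear factor I transcription factors, had intronic members of 15.5 and 12.4 tags without an ethanol site. ANKH, a pyrophosphate transporter gene, had 3 members within 50 kb, the strongest in its own intron and without an ethanol site. For SLC45A3, the prostein gene, the member lay 30.149 kb from a TSS with 12.4 tags. ABCC4, a drug and prostaglandin exporter, and HERC3, a HECT domain ubiquitin ligase, had intronic members of 10.9 tags each. Of these 12 genes, the site by KLK3 and KLK2 was the only one with a TRIM24 ethanol site, and none of the strongest members of the 12 genes held a full ARE or a forkhead core. Of all members, 15.8% had a TRIM24 ethanol site and 19.4% held an ARE or a forkhead core. The 12 were the first by tags among the listed genes with a member. Below that cut, the ELF3 and SPDEF members held a forkhead core, and the ELF3 and NCOA1 members had a TRIM24 ethanol site.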

How the data were processed

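The authors aligned ChIP-seq reads of LNCaP cells to hg19 (BWA 0.6.1, per the submitters' processing notes) and called sites in each of the 4 samples with HOMER 4.1, without an input library in the recorded command. Per the file headers, a site needed a false discovery rate of 0.001 and a fold of 4 over the surrounding 10 kb at a Poisson p-value of 1e-04, with at most 1 tag per base used for calling. The deposited signal is the normalized tag count per 10 M tags. The deposited score is not scaled for depth. The deposited fold is the ratio to the local tag density, and the deposited p-value is unadjusted. Total tags were 11606880 to 25145171 per sample in the file headers, although the study's methods describe matching samples to one size by random picking of reads. The headers were used.

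From these lists, site classes, 1 bp overlaps, motif matches and distances were computed on GRCh37 with GENCODE 44 (matplotlib 3.10.9, numba 0.67.0, pandas 2.3.3, scipy 1.17.1 and numpy 2.4.6 under Python 3.11.15). Shares have Wilson 95% intervals, which cover counting error only, and were compared by two-sided Fisher's exact tests with Benjamini-Hochberg adjustment. A share of 0 allows up to 3 counts of the total. Alternatives changed the overlap, TSS limit, site strength, chromosomes, motif window and mismatches. Overlap and motif counts were tested on simulated data. Members, motifs and gene lists were chosen with earlier results of these data known. Named members were the 5 with most tags, largest fold, most tags among ARE and forkhead members, and most tags in each ethanol list, and the strongest member of up to 12 androgen or prostate factor genes. Other members named were shown for their sequence, position at a limit, or group of neighbours, after their values were seen. Members are named by the gene they lie in, by the listed gene they were chosen for, or otherwise by the nearest protein-coding TSS. One of the 12 motifs adjusted over and 1 of the strongest members are not reported here.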

Additional observations from a re-analysis of the deposited data

How the results depend on the processing

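Among the main comparisons that passed the test, the direction was reversed in 1 alternative. The FOXA1 consensus with no mismatch gave 1.26% in members and 1.44% in TRIM28-only distal sites. The ARE and repeat differences from TRIM28-only distal sites, the repeat difference from shared distal sites, the TRIM24 and TRIM28 ethanol overlaps against shared distal sites and the TRIM28 ethanol overlap against sites near a TSS passed the test under every alternative tried. For the TRIM28 ethanol overlap against shared distal sites, the rule largely set the direction in advance. Against shared distal sites, the forkhead call was lost, with members still lower, with an overlap of 50% of both sites (15.8% in members, 17.8% in shared distal sites), a TSS limit of 10 kb (15.4% and 18.8%), members above the list's median tags (13.7% and 16.7%), a fold of 8 or more (14.5% and 18.0%), fewer than 2 genome copies (17.5% and 20.5%), a 400 bp window (19.4% and 22.5%), the FOXA1 consensus exactly (1.26% and 2.07%) and with 1 mismatch (17.3% and 19.5%). The odds ratio was 0.777 in the reported comparison, and 0.786 with the 10 kb limit, 0.774 with the fold of 8 and 0.791 above the median tags. The ARE split by TRIM24 ethanol site was lost with at most 1 mismatch (1.42% without an ethanol site) and with the ARE consensus of the motif sheet (1.87%, against 0 of 251). The TRIM24 ethanol overlap passed against sites near a TSS in opposite directions. Members were higher with protein-coding TSSs only (17.1% against 14.3%), and lower with ethanol centres within 500 bp (17.7% against 20.4%) and without members at a TRIM28 ethanol site (13.2% against 15.7%). There were 746 members above the list's median tags and 838 on odd chromosomes. Within 20 kb, members lay near 9 androgen genes, 4 prostate factor genes and 542 genes in all. Within 100 kb they lay near 22 androgen genes and 2201 genes in all. The causes were not tested. The alternatives on copy number, B box and TRIM28 ethanol sites were chosen after seeing the data. Those on soft-masked sequence were not run, since the reference used is not soft-masked. No paired analysis was possible because each condition has 1 sample.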

Other observations

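Members were unevenly spread along the genome. Their density was 3.73 to 8.24 per 10 Mb of known sequence on the 22 autosomes, with a median of 5.50. Shared distal sites were spread unevenly too, at 3.87 to 10.5 on the autosomes. On chromosome X the density was 1.92 for members and 0.860 for shared distal sites. There were 18 groups of 4 or more members in which neighbours were at most 100 kb apart, holding 113 members (7.11%). Besides the groups with B boxes, chr19:50595776-50640485, between ZNF473 and IZUMO2, held 9 members of 8.5 to 13.2 normalized tags, 8 of them in sequence of 10 or more copies and 1 with a TRIM24 ethanol site. The group chr12:81912572-82020485, by PPFIA2, held 6 members of 7.8 to 14.7 tags, none of them in such sequence and 1 with an ARE. These groups were picked out after their values were seen.

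Split by a TRIM28 ethanol site instead of a TRIM24 ethanol site, the members gave the following shares, without a test. The ARE was in 3.35% of the 388 members with a TRIM28 ethanol site and 6.32% of the 1202 without one. The forkhead core was in 18.3% and 13.6%, the opposite order to the split by TRIM24. The GC box was in 7.73% and 2.91%.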
